A study of Homo sapiens with 6 samples.

Results

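The 39 HOX genes were followed as a group in TC28a2, a human chondrocyte line made immortal in culture, whose cells carried either a control vector or a vector for overexpression of FAP, a membrane serine protease. The members were chosen by name as the protein-coding genes of the HOXA, HOXB, HOXC and HOXD clusters, and all 39 were found among the 28395 genes of the deposited count table. Both groups held 3 libraries (replicates 1, 2 and 3), prepared by DRUG-seq, in which many RNA samples are barcoded and sequenced as 1 pool, from RNA collected 48 hours after transfection. The cells of both groups were transfected, and the labels give no untransfected group, no promoter for the vector and no statement that replicates were separate cultures. All 6 libraries come from a single line, so its HOX pattern is that of 1 line and not of cartilage. Spread between libraries, on which every p-value rests, may therefore be purely technical.

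HOX genes encode transcription factors with a homeodomain, a DNA-binding fold that all members share. They lie in 4 clusters on different chromosomes, and members that share a number in different clusters are paralogs, descended from 1 gene before the clusters were duplicated. In the embryo, low-numbered members are switched on early and towards the head and high-numbered members later and towards the tail or limb tip, so that the set of active members records a position along the body. Cultured mesenchymal cells keep much of this record. TC28a2 is known as a line made from costal cartilage, the cartilage of the ribs.

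The HOXA cluster (GRCh38 chromosome 7) holds 11 members, HOXB (chromosome 17, 48528526 to 48728750) holds 10, HOXC (chromosome 12, 53938831 to 54056030) holds 9 and HOXD (chromosome 2, 176087487 to 176190907) holds 9. Library totals ran from 5736056 to 13839743 counts, and HOX members together took 213, 224 and 232 CPM of the library total in control replicates 1, 2 and 3 and 237, 231 and 227 in FAP replicates 1, 2 and 3. FAP itself had 0, 11 and 5 counts in the controls and 1396, 3182 and 4733 in the FAP libraries, so every library matched its label. Of 12 chondrocyte markers SOX9, the main cartilage transcription factor, was the only 1 with enough counts to be tested, while COL2A1 and ACAN, the main cartilage collagen and proteoglycan, were at 0.381 ± 0.201 and 1.20 ± 0.395 CPM in controls (SD, n = 3). Of 7 fibroblast markers all were tested, COL1A1 standing at 591 ± 137 CPM in controls. PDGFRB, THY1, COL1A2 and COL3A1 had control means of 63.5, 57.4, 38.9 and 12.1 CPM, but LUM and DCN only 1.04 and 0.799 CPM, below ACAN. The epithelial keratins KRT8 and KRT18 were at 440 ± 34.5 and 939 ± 76.4 CPM, while the other epithelial markers EPCAM, CDH1 and KRT5 had control means of 0.0264, 0.146 and 0.152 CPM. Summed over their lists, chondrocyte markers ran from 26.9 to 36.1 CPM in controls and from 34.7 to 45.1 in FAP libraries, and fibroblast markers from 592 to 859 and from 764 to 915. Of 3 endothelial markers CDH5 was at 0, and the sums ran from 0.712 to 0.983 and from 1.84 to 2.55 CPM. Of 3 immune markers the sums ran from 0.913 to 0.983 and from 1.34 to 1.76 CPM. Of 3 neural markers TUBB3 stood at 323 ± 18.1 CPM in controls, while SOX10 and GFAP had control means of 0 and 0.0728 CPM. The neural sums ran from 302 to 336 and from 273 to 315 CPM. Of 3 muscle markers the sums ran from 1.27 to 3.84 and from 1.11 to 3.46 CPM. The part of these cell types in the results was not tested, and in bulk RNA fewer cells of a type and less RNA per cell cannot be told apart. FAP replicate 3 stood apart from the other FAP libraries, with a chi-square per degree of freedom of 16.2 and 15.5 against 5.74 between FAP replicates 1 and 2. Log2 fold changes without it are given for the members whose direction it turned.

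Levels are TMM-scaled CPM, that is, counts per library size with a correction for library composition. Levels of different genes are compared only as CPM per kb of the longest annotated transcript. Libraries primed at the 3′ end of transcripts need not scale with length, and the values without length are therefore given where the order changes.

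The controls expressed HOXB and HOXC far above HOXA and HOXD. In CPM per kb, HOXC members made up 44.5%, 49.5% and 48.6% of the summed HOX level in control replicates 1, 2 and 3, and HOXB members 46.0%, 39.6% and 41.7%. HOXA members made up 6.68%, 7.63% and 6.54%, and HOXD members 2.83%, 3.24% and 3.18%. The order of HOXC and HOXB was not stable, HOXB being the higher in replicate 1 and HOXC in replicates 2 and 3. With the median transcript length in place of the longest, the mean shares were 53.8% for HOXB and 37.3% for HOXC. HOXA and HOXD stayed below both in each control library and on each of the 3 scales.

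**Figure D1:**
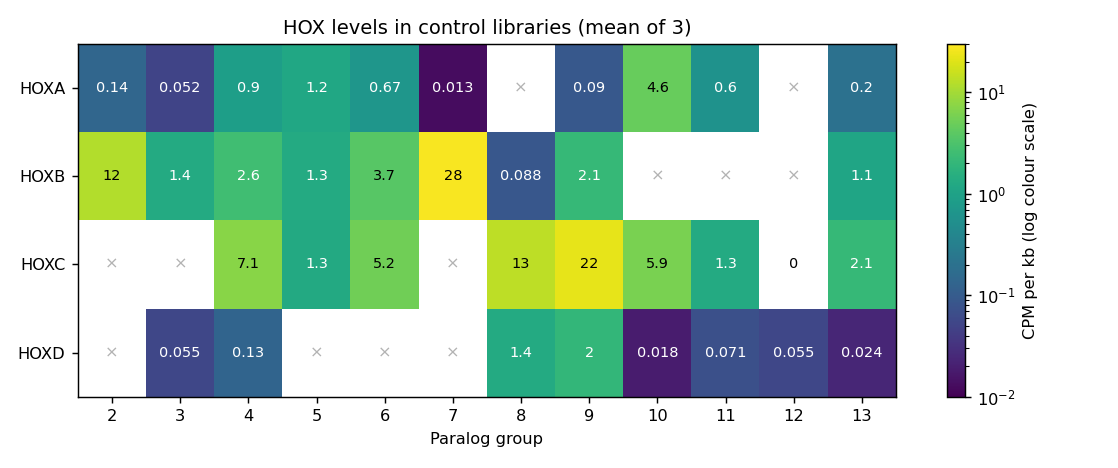
Mean level of HOX members in the 3 control libraries, in CPM per kb on a log colour scale, by cluster (rows) and paralog group from 2 to 13 (columns). A grey cross marks a group that the cluster lacks and a white cell with 0 a member with no count. HOXB7 (28), HOXC9 (22), HOXC8 (13) and HOXB2 (12) are the brightest. In the HOXA and HOXD rows HOXA10 is the brightest, followed by HOXD9, HOXD8 and HOXA5.

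HOXB7, a member of the trunk groups (chromosome 17, 48607232 to 48611017), had the highest level of all 39, with 44.9, 35.9 and 33.7 CPM in the controls or 27.9 ± 4.33 CPM per kb (SD, n = 3). That placed it at the 88.7th percentile of the 20159 genes with a count and a known transcript length. HOXC9 (chromosome 12, 54000161 to 54003337), which patterns thoracic vertebrae and ribs, followed with 29.2, 34.5 and 36.3 CPM or 22.0 ± 2.44 CPM per kb. The ranges of HOXB7 and HOXC9 over the controls did not overlap per kb. HOXC8, another thoracic gene, had 24.3, 26.1 and 25.6 CPM or 13.4 ± 0.494 CPM per kb. HOXB2, a hindbrain gene, had 18.3, 16.9 and 20.8 CPM or 11.95 ± 1.26 CPM per kb. The ranges of HOXC8 and HOXB2 overlapped, so these levels were not told apart. By the median transcript length HOXC8 was sixth and HOXB2 the third.

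The next levels formed a run of neighbours whose ranges overlapped. HOXC4, a neck and upper trunk gene, had 10.05, 14.2 and 11.4 CPM. HOXC10, a gene of the lower trunk and hindlimb, had 12.2, 11.1 and 11 CPM. HOXC6, a thoracic gene, had 14.1, 17.04 and 15.04 CPM. HOXA10, a lumbar and limb gene known from the uterus, had 12.8, 12.2 and 10.1 CPM. In CPM per kb they lay at 7.13 ± 1.27, 5.92 ± 0.349, 5.23 ± 0.516 and 4.60 ± 0.569, and each overlapped the next. HOXB6, a trunk gene, closed the run at 8.40, 6.45 and 7.12 CPM or 3.74 ± 0.507 CPM per kb. Over the whole order of 39 members, 32 of the 38 pairs of neighbours had overlapping control ranges.

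Lower members were measured at a few CPM. HOXB4, a gene known from blood stem cells, had 8.58, 7.98 and 12.3 CPM, and HOXB3, a hindbrain and neck gene, 6.76, 4.37 and 5.94 CPM. HOXB9, a thoracic gene, had 3.11, 6.88 and 6.33 CPM, HOXB13, best known from the prostate, 2.56, 4.92 and 4.19 CPM, and HOXB5, a neck and lung gene, 2.37, 3.28 and 2.45 CPM. HOXC13, which acts in hair and nail, had 4.201, 5.79 and 5.38 CPM, HOXC11 5.11, 4.92 and 3.09 CPM, and HOXC5 2.74, 1.86 and 2.45 CPM. HOXB thus carried counts from HOXB2 to HOXB13 and HOXC from HOXC4 to HOXC13, and the only members of these clusters without a count were HOXB1 and HOXC12.

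HOXA and HOXD were at low counts with a few members above the rest. HOXD9 and HOXD8, neighbours in the middle of their cluster, had 3.84, 3.93 and 3.56 CPM and 2.56, 2.29 and 2.93 CPM. The other 7 HOXD members, from HOXD1 to HOXD13, had at most 7 counts in any control library. In HOXA, after HOXA10, HOXA5 had 2.19, 2.08 and 1.504 CPM, HOXA4 0.731, 2.62 and 1.35 CPM, and HOXA11 1.64, 1.75 and 0.712 CPM. HOXA13, a gene of the limb tip, had 1.46, 0.655 and 0.871 CPM.

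Neighbouring genes differed widely in level. HOXB8 had 1, 2 and 1 counts in the controls, between HOXB7 with 246, 329 and 426 and HOXB9 with 17, 63 and 80. Summed over the controls and per kb, HOXB7 was 333-fold and HOXB9 28.3-fold above HOXB8. HOXA10 was 35.8-fold above HOXA9, which had 0, 0 and 7 counts, and 8.21-fold above HOXA11. HOXC12 had no count in any of the 6 libraries, and HOXC13 beside it was at least 66.1-fold higher over the controls, taking 3 counts over the group as the limit that 0 allows. HOXB1, the other member with no count, lies next to HOXB2. These 0 counts allow up to 0.548 CPM in the shallowest library and 0.212 CPM in the deepest.

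Part of these levels depends on how reads in shared exons were counted, and no setting for such reads is given in the sources used here. The readthrough record HOXA10-HOXA9 (chromosome 7, 27162438 to 27180239) spans both HOXA9 and HOXA10 and had 0 counts in every library. The same was seen at COMMD3-BMI1, a readthrough record outside the clusters with 0 counts in every library, whose gene BMI1 had at most 11 counts. The part of shared reads in the low HOXA9 level was not tested. HOXC4, HOXC5 and HOXC6 share the annotated start at chromosome 12, 54016888, and 17.8%, 14.4% and 15.7% of their exonic bases lie in exons of other genes of the table. For HOXA7, HOXA6, HOXB6 and HOXA11 the shares were 62.5%, 39.3%, 32.9% and 31.1%, with antisense genes and, for HOXB6, also with HOXB3. Counting without strand cannot tell a gene from its antisense partner. HOXB7, HOXB8, HOXB9, HOXC8, HOXD8 and HOXD9 share no exonic base with another gene of the table.

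The start regions of HOXA10 and HOXA9, and of HOXD8 and HOXD10, are shown because each pair sets a measured member beside a near neighbour with few or no counts in the controls. The windows run from 250 bases before to 50 bases after an annotated start, from RefSeq on GRCh38.p14, 5′ to 3′ on the gene's strand, with CG dinucleotides in capitals.
HOXA10, upstream start, chr7:27179812-27180111, minus strand: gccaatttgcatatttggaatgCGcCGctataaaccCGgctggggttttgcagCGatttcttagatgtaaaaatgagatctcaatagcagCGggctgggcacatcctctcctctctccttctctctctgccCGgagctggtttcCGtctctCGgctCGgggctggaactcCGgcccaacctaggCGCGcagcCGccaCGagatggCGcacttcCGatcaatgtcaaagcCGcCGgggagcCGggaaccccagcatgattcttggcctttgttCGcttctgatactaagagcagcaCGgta
HOXA10, downstream start, chr7:27174271-27174570, minus strand: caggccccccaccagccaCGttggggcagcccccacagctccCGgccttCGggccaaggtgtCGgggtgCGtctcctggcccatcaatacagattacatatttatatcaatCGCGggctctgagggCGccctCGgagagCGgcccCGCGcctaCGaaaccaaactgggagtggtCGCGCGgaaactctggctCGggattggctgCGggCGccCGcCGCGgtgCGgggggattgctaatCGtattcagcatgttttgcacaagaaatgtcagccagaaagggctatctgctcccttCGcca
HOXA9, chr7:27165488-27165787, minus strand: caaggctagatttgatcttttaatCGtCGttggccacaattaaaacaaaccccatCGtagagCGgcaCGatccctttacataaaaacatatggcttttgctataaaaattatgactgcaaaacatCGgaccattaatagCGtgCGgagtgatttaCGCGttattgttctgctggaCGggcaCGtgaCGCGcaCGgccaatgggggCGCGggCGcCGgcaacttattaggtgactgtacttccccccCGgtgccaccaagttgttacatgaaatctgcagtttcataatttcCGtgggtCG
HOXD8, chr2:176129455-176129754, plus strand: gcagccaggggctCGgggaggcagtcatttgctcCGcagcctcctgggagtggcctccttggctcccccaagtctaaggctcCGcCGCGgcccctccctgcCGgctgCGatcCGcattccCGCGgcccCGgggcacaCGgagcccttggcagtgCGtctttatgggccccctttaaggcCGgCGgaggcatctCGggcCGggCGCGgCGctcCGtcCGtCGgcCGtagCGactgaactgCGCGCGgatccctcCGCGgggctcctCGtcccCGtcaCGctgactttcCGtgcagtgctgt
HOXD10, chr2:176116528-176116827, plus strand: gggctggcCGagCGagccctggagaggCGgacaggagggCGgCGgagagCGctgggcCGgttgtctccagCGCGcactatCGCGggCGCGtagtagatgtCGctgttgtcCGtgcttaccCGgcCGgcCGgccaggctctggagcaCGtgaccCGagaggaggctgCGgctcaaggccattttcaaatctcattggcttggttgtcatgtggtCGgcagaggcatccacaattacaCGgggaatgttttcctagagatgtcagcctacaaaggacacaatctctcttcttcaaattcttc

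CG dinucleotides varied widely between the windows of members with few counts. HOXA10 held 21 and 25, HOXA9 22, HOXD8 34 and HOXD10 23, while HOXA10 was at 11.7 CPM, HOXA9 at 0.185, HOXD8 at 2.59 and HOXD10 at 0.0364 CPM on average in the controls. RefSeq windows were found for 20 members, in 26 distinct windows, since HOXA3 and HOXA10 have several and HOXC4 and HOXC5 share 1. Among members too low to be tested, the 7 windows of HOXA3 held 0 to 29, HOXD4 4, HOXA2 and HOXB1 11 each, and HOXD1 36. Over all HOX windows the median was 22.5 CG per window against 14 over all 35116 windows of the reference. It was 25 in the 7 windows of members with enough counts to be tested and 22 in the 19 others, a description without a test. The tested members with a window were HOXA4, HOXA10, HOXA11, HOXA13, HOXC4, HOXC5 and HOXD8. No window was found for the most abundant members HOXB7, HOXC9, HOXC8 and HOXB2, and HOXA3 alone gave 7 of the 19 others.

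By paralog group, the controls were highest in groups 7 and 9. Group 7 took 27.0%, 21.1% and 20.1% of the summed HOX level per kb in control replicates 1, 2 and 3, nearly all of it HOXB7, and group 9 took 18.5%, 22.1% and 23.3%, mostly HOXC9. Group 8 followed with 11.8%, 12.2% and 12.3% and group 2 with 9.70%, 8.76% and 11.1%, through HOXC8 and HOXB2. Group 4, at 9.91% in control replicate 2, was above group 2 there. The order below groups 7 and 9 changed with the scale. By CPM, the mean share of group 2 was 8.33%, below 10.3% for groups 4 and 6 and 10.2% for group 10. By the median transcript length, group 8 took 7.52%, below 11.1% for group 10, 10.3% for group 6 and 9.87% for group 2. Groups 3, 11 and 12, and group 13 with HOXA13, HOXB13, HOXC13 and HOXD13, each took at most 3.17% in any control library. Groups 7 and 9 overlapped across libraries and were not told apart. By the median transcript length group 7 alone led, with a mean share of 35.2% against 12.97% for group 9.

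**Figure D2:**
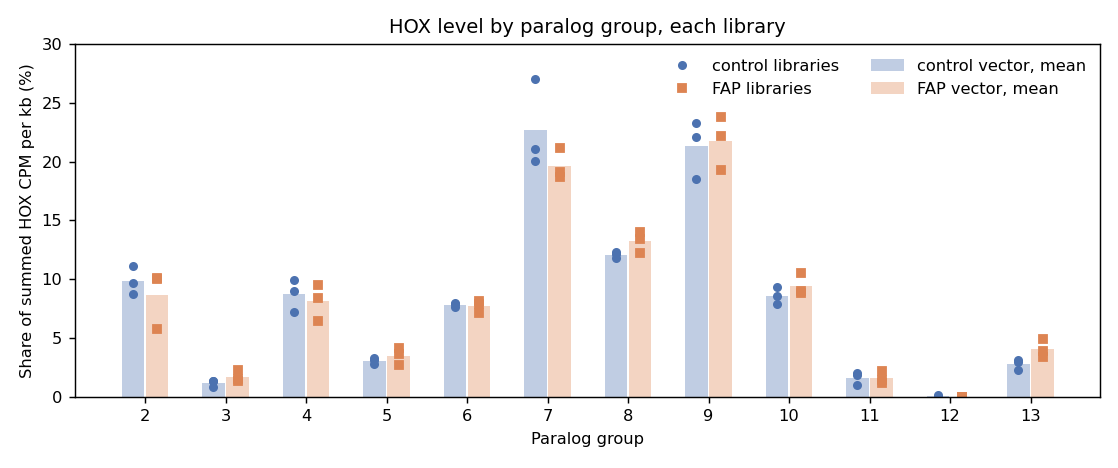
Share of the summed HOX level (CPM per kb, percent) that each paralog group from 2 to 13 took in each library. Bars are means of 3 libraries and points are the libraries, controls as circles and FAP libraries as squares. Groups 7 and 9 are tallest in both conditions, and of the groups drawn only group 13 has all FAP points above all control points.

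Against this background the FAP vector was compared with the control vector, to see whether raised FAP altered the HOX pattern. Of the 39 members, 24 had enough counts to be tested, and 0 were called at an adjusted p under 0.05 (edgeR's quasi-likelihood test over 13373 genes). Among all tested genes 0.224% were called. At an unadjusted p under 0.05 there were 2 members, both higher, HOXC13 among them, where 9.91% of all genes passed, 4.61% higher and 5.30% lower. DESeq2 and limma-voom also called 0 members, with 0 and 1 at an unadjusted p under 0.05. Of the 24 members 16 had a positive and 8 a negative log2 fold change, against 50.7% positive among all tested genes. Their median was 0.07, and that of all tested genes 0.00. Such a result does not show that HOX levels were equal. The 95% interval lay within a 2-fold change for 18 members and within a 1.5-fold change for 7.

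**Figure D3:**
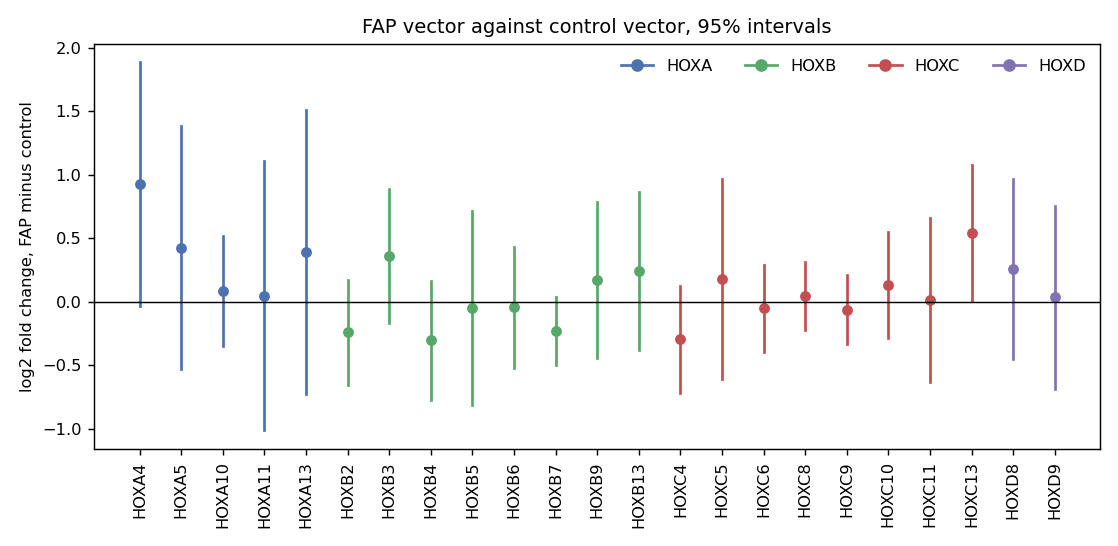
Log2 fold change of FAP minus control for tested members of groups 2 to 13 with 95% intervals from edgeR, coloured by cluster. Intervals are narrow for HOXB7, HOXC8 and HOXC9 and widest for the low HOXA members, and of those drawn only that of HOXC13 lies wholly above 0.

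The most abundant members had the tightest estimates. HOXB7 was at 31.9, 31.5 and 33.2 CPM in the FAP libraries, just below the lowest control of 33.7 (log2 fold change -0.23, SE 0.13, 95% interval -0.50 to 0.03, edgeR adjusted p = 0.562). HOXC9 was at 34.5, 34.5 and 27.9 CPM, overlapping the controls (log2 fold change -0.06, SE 0.13, 95% interval -0.33 to 0.21, edgeR adjusted p = 0.911), and its low library was FAP replicate 3, without which the value was 0.04. HOXC8, at 28.1, 24.6 and 26.2 CPM, had a log2 fold change of 0.04 with an interval of -0.22 to 0.31. For these 3 genes a change of 1.5-fold in either direction lay outside the interval. HOXB2 was at 19.3, 18.8 and 10.2 CPM, the low value being that of FAP replicate 3 (log2 fold change -0.24, SE 0.20, edgeR adjusted p = 0.727), and without that library its value was 0.02. HOXC6 was at 15.5, 16.2 and 13.04 CPM, and its groups overlapped. HOXB6, at 7.98, 7.48 and 5.85 CPM, overlapped as well.

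Members lay apart between the groups about as often as all tested genes did. HOXC13 had 10.4, 5.93 and 7.04 CPM, all above the highest control of 5.79 (log2 fold change 0.54, SE 0.26, 95% interval 0.00 to 1.08, edgeR adjusted p = 0.503). FAP replicate 1 was the high library, and replicate 2 lay just above the highest control. Over all 24 tested members 2 lay wholly higher and 1, HOXB7, wholly lower, where 16.0% of all tested genes did not overlap, 7.96% higher and 7.99% lower.

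The remaining tested HOXB and HOXC members overlapped between groups. HOXB4 was at 8.30, 9.10 and 6.45 CPM (log2 fold change -0.30, SE 0.22, edgeR adjusted p = 0.686), and HOXC4 at 7.34, 10.4 and 10.9 CPM (-0.30, SE 0.20, adjusted p = 0.657). HOXB3 was at 7.02, 5.72 and 8.89 CPM (0.36, SE 0.25, edgeR adjusted p = 0.667). HOXC10 was at 8.46, 13.4 and 14.7 CPM, a wider spread than that of its controls (0.13, SE 0.20, edgeR adjusted p = 0.863). Without FAP replicate 3 its value was -0.01. HOXB5 had 3.35, 2.05 and 2.67 CPM, HOXB9 8.94, 4.73 and 6.003 CPM and HOXB13 5.59, 4.16 and 4.67 CPM. HOXC5 had 1.92, 2.61 and 3.19 CPM and HOXC11 3.51, 3.599 and 5.63 CPM. For these 5 members the log2 fold changes lay between -0.05 and 0.24. Without FAP replicate 3 the sign turned for HOXC5 (0.18 to -0.00070), HOXC11 (0.01 to -0.26), HOXB6 (-0.04 to 0.09) and HOXC6 (-0.05 to 0.04), none of them called.

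**Figure D4:**
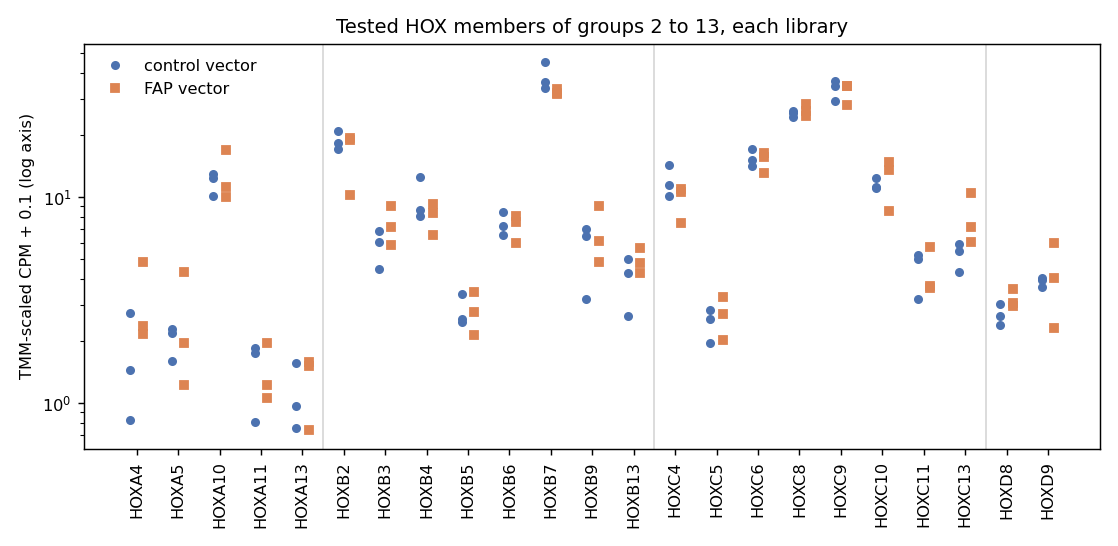
TMM-scaled CPM plus 0.1 of tested members of groups 2 to 13 in each library on a log axis, controls as circles and FAP libraries as squares, with grey lines between clusters. The groups overlap for all members drawn but HOXC13, where the FAP libraries are higher, and HOXB7, where they are lower.

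All 6 tested HOXA members had positive log2 fold changes, with a median of 0.41, and none was called. The summed HOXA level was 8.11, 9.49 and 8.03 CPM per kb in the controls and 10.3, 10.03 and 11.6 in the FAP libraries, which did not overlap. HOXA4 was at 2.07, 2.26 and 4.74 CPM, highest in FAP replicate 3 (log2 fold change 0.93, SE 0.46, 95% interval -0.03 to 1.88, edgeR adjusted p = 0.519), and without that library its value was 0.42. HOXA5 was at 1.12, 4.23 and 1.85 CPM, with FAP replicate 2 alone above the controls (0.42, SE 0.46, edgeR adjusted p = 0.802), and without that library its value was -0.28. HOXA10 was at 16.8, 9.88 and 11.1 CPM, with FAP replicate 1 the high library (0.08, SE 0.21, edgeR adjusted p = 0.928), and without that library its value was -0.14. HOXA11 and HOXA13 were at 0.957, 1.13 and 1.85 CPM and at 0.638, 1.48 and 1.41 CPM, and the HOXA11 value turned from 0.05 to -0.30 without FAP replicate 3. Different libraries were thus high at different HOXA genes. The count of positive members was 4 of 6 without control replicate 3 and 4 of 5 without FAP replicate 3, and the median ranged from 0.22 without FAP replicate 2 to 0.66 without FAP replicate 1.

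The HOXD members that were tested gave wide intervals. HOXD8 was at 2.87, 2.96 and 3.48 CPM (log2 fold change 0.26, SE 0.34, 95% interval -0.45 to 0.97, edgeR adjusted p = 0.842). HOXD9 was at 5.90, 3.95 and 2.22 CPM, FAP replicate 1 lying well above, replicate 2 just above and replicate 3 below all controls (0.03, SE 0.35, edgeR adjusted p = 0.986). Without FAP replicate 3 its value was 0.35, and without FAP replicate 1 it was -0.28.

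The 15 members left out of the test had between 0 and 13 counts in any library. HOXB8 had 4 counts over the controls and 21 over the FAP libraries, of which 12 were in FAP replicate 3 and 9 in the other 2 FAP libraries. Without the low-count filter its log2 fold change was 1.96 (SE 1.18, edgeR adjusted p = 0.711), the smallest adjusted p among these members. HOXA7 had 1 and 10 counts over the control and FAP groups, HOXA9 7 and 17, HOXA3 5 and 19 and HOXD3 5 and 16. HOXA2, HOXA6, HOXD1 and HOXD4 had 9 and 12, 21 and 21, 4 and 10, and 14 and 17 counts. HOXD10, HOXD11, HOXD12 and HOXD13 had at most 5 counts in either group. These sums are raw counts, and the FAP group was sequenced deeper. Effective library sizes were 5474867, 9153401 and 12634865 in control replicates 1, 2 and 3. They were 6266386, 14168568 and 13493354 in FAP replicates 1, 2 and 3. No change was detectable at these depths.

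Shares of the clusters moved little between conditions. HOXC took 46.7%, 49.3% and 49.5% of the HOX level per kb in the FAP libraries, and HOXB 40.7%, 38.8% and 37.2%. HOXA took 8.29%, 8.31% and 10.04%, each above the highest control of 7.63%. HOXD took 4.30%, 3.61% and 3.22%. Group 13 took 4.95%, 3.34% and 3.92% against 2.27%, 3.17% and 2.99% in the controls. These shares come from the members described above and were not tested on their own.

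Noncoding genes of the clusters were likewise low. Of 24 such records, the readthrough record and 7 microRNA genes included, 16 had a count, 6 were tested and 0 were called (smallest edgeR adjusted p = 0.571). HOTAIRM1, an antisense RNA of the HOXA cluster, stood at 7.31, 7.54 and 5.78 CPM in the controls and 7.34, 6.35 and 7.93 CPM in the FAP libraries (log2 fold change 0.08, SE 0.23). At 7.73 ± 1.08 CPM per kb in the controls it was above HOXA10, the highest HOXA member, but without length the order turned, with 6.87 CPM against 11.7 for HOXA10. HOXD-AS2, of the HOXD cluster, stood at 5.11, 8.30 and 4.83 CPM and at 7.50, 5.58 and 8.45 CPM (0.23, SE 0.26). HAGLR, beside HOXD1, and HOXC-AS1 had the smallest p-values, with log2 fold changes of 0.53 (SE 0.34) and 1.20 (SE 0.67). HOXC-AS1 had only 5, 4 and 2 counts in the controls and 8, 13 and 12 in the FAP libraries. It passed the low-count filter through the FAP libraries alone, so its positive value is partly set by that filter. HOTAIR, an RNA of the HOXC cluster between HOXC11 and HOXC12, was at 1.09 ± 0.283 CPM in the controls. The 7 microRNA genes had 0 counts in every library.

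HOX proteins bind DNA with TALE homeodomain partners. Of 12 genes on the list of TALE factors and their binding protein 10 were tested, 9 with a positive log2 fold change, and the median was 0.12. Among all tested genes 50.7% had a positive value and 0.224% were called. In the TALE list 1 gene was called, higher in the FAP libraries. The call was lost without any 1 of the 3 controls and without FAP replicate 2. TGIF2 and MEIS3, the most abundant per kb, had 40.1 ± 2.37 and 21.8 ± 1.46 CPM in the controls and log2 fold changes of 0.05 (SE 0.11) and 0.05 (SE 0.14).

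Polycomb proteins keep HOX clusters silent, and Trithorax proteins with cohesin and CTCF keep them active or divided. Of 28 Polycomb genes 26 were tested and 0 called, with 14 positive and 12 negative values (median 0.08, smallest edgeR adjusted p = 0.390). PCGF6 and CBX2, both members of repressive complex 1, had log2 fold changes of 0.38 (SE 0.14) and 0.44 (SE 0.17). PHC2 and RBBP7, the most abundant per kb, had -0.19 (SE 0.10) and -0.03 (SE 0.10). All 24 Trithorax and opposing genes were tested and 0 called, 15 positive and 9 negative (median 0.07, smallest edgeR adjusted p = 0.281). The cohesin subunit RAD21 stood at 314 ± 23.2 and 388 ± 19.3 CPM and did not pass (log2 fold change 0.31, SE 0.10), the demethylase gene KDM5B had 0.29 (SE 0.12) and PSIP1, which tethers KMT2A to chromatin, had -0.11 (SE 0.10).

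Retinoic acid switches on low-numbered HOX genes, and other homeobox genes mark limb and trunk position. Of 18 retinoic acid pathway genes 11 were tested and 0 called (8 positive, 3 negative, median 0.25). DHRS3, a retinaldehyde reductase, was at 0.183, 1.31 and 0.712 CPM in the controls and 3.83, 2.89 and 2.22 CPM in the FAP libraries, which did not overlap (log2 fold change 1.86, SE 0.50, 95% interval 0.81 to 2.92, edgeR adjusted p = 0.179). Without its FAP libraries DHRS3 would not have passed the low-count filter, so its positive value is partly set by that filter. The edgeR adjusted p of DHRS3 was 0.0260 with no low-count filter. Leaving out FAP replicate 3 gave 0.0336, and over all alternatives with a value it ran up to 0.577. CRABP2, a retinoic acid carrier, was at 8.95, 11.6 and 10.1 CPM and at 14.04, 13.6 and 14.7 CPM, again without overlap (0.46, SE 0.18, edgeR adjusted p = 0.391), and the retinoid receptor gene RXRB had -0.10 (SE 0.13). Of the 11 tested genes of this pathway 2 did not overlap between groups, near the 16.0% of all tested genes that did not overlap. Of 49 other positional transcription factors 28 were tested and 0 called (15 positive, 13 negative, median 0.06, smallest edgeR adjusted p = 0.405). MSX1, a limb bud gene, stood at 102 ± 5.91 and 84.2 ± 14.04 CPM (log2 fold change -0.29, SE 0.11). PITX1, which specifies the hindlimb, stood at 55.4 ± 2.39 and 60.3 ± 10.7 CPM (0.11, SE 0.12), while the forelimb gene TBX5 and the hindlimb gene TBX4 had control means of 0.304 and 0.0264 CPM. PRRX2, a limb mesenchyme gene, had a log2 fold change of 1.29 (SE 0.56) at 0.750 and 2.07 CPM. Like DHRS3, it passed the low-count filter only with its FAP libraries.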

How the data were processed

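For 6 libraries the authors deposited raw counts of reads per Entrez gene ID. The submitters' processing notes list GRCh38, HISAT2, featureCounts and Subread. How strand, multiple alignments and UMIs were handled is not given in the sources used here. Symbols and positions came from RefSeq (GRCh38.p14; 27745 of 28395 IDs matched), and transcript lengths and exons from GENCODE 29, all 39 members having a length. Counts were tested for FAP minus control with edgeR 4.0.16 in R 4.3.3 (TMM, filterByExpr with minimum count 10 and minimum total 15, two-sided quasi-likelihood F test, Benjamini-Hochberg over 13373 genes, called under 0.05). SE was taken as log2 fold change over the root of F. The fit was checked on simulated counts. Alternatives were DESeq2 1.42.0, limma-voom 3.58.1, other scalings and filters, a replicate block and each library left out. Most members passing the filter are named with every library's value. Full statistics are given for the 3 of smallest p and the most abundant member of each cluster, and for HOXB2. In other lists, called genes or else the 2 of smallest p, and the 2 most abundant, are named. HOTAIR, TBX4, TBX5, BMI1, COMMD3-BMI1 and the markers were added after their values were seen. Members and lists were chosen with earlier results of these data known. Results of some members and listed genes are not reported here, and counts include them. Figures were drawn with matplotlib 3.10.9.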

Additional observations from a re-analysis of the deposited data

How the results depend on the processing

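No HOX member was called in any of the 13 alternatives. Of 149 values of 12 members given with full statistics, HOXB2 not included, 139 kept their direction. The exceptions were HOXA5 (-0.28 without FAP replicate 2; leave-one-out range -0.28 to 0.70), HOXA10 (-0.024 without control replicate 3; range -0.14 without FAP replicate 1 to 0.24), HOXC10 (-0.014 without FAP replicate 3, the low end, to 0.31), HOXC9 (0.0071 without control replicate 3; range -0.14 to 0.035 without FAP replicate 3) and HOXD9 (-0.14 with limma-voom, -0.039 with the replicate block, -0.0084 without control replicate 3; range -0.28 without FAP replicate 1 to 0.35). None of these was called, nor was HOXB2, whose value turned from -0.24 to 0.02 without FAP replicate 3. Also reversed were MEIS3 (range -0.043 without FAP replicate 2 to 0.15; -0.0010 without control replicate 2), RBBP7 (0.024 with library totals; range -0.10 to 0.014 without FAP replicate 1), HOTAIRM1 (range -0.047 without control replicate 3 to 0.17; -0.0057 without FAP replicate 3), RXRB (range -0.25 to 0.0092 without control replicate 2), PITX1 (range -0.0030 without FAP replicate 1 to 0.24) and COL1A1 (range -0.021 without control replicate 1 to 0.27). The cause was not tested.

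Positive HOX members numbered 26 of 37 with no low-count filter. At 10 CPM or more in 3 libraries, where fewer members are tested, 3 were positive and 5 negative (median -0.05). Library totals gave 18 positive and 6 negative (median 0.12, that of all genes 0.06). Over all genes, calls were 13 higher and 17 lower. They were 29 and 53 with DESeq2, 54 and 98 with no filter, 7 higher with limma-voom and 6 lower with library totals. Leaving out 1 library gave 1 to 109 higher and 2 to 139 lower, the most without FAP replicate 3. Called TALE genes then ranged from 0 to 1, as did called retinoic acid genes (1, DHRS3, without FAP replicate 3 and also with no filter). The noncoding median of 0.28 was -0.096 with no filter. Control shares were 8.44% for HOXA by CPM, and 53.8%, 37.3% and 2.13% for HOXB, HOXC and HOXD by median length.

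With the replicate number as a block, 28 genes were called lower and 0 HOX members. Same-numbered libraries did not deviate together (correlations -0.013, 0.039 and -0.001), and control replicate 1 correlated most with FAP replicate 3 (0.04). Values so near 0 cannot tell whether same-numbered libraries were prepared together, and the labels do not say. The 15 untested members are limited by their counts.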
